A study of Mus musculus with 2 samples.

Results

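The genes described here encode the machinery of oxidative phosphorylation. They comprise every gene of the deposited table whose symbol starts with Nduf, Uqcr, Cox4i, Cox5, Cox6, Cox7, Cox8, Atp5, Sdh or mt-, without names marked as pseudogenes, which gave 109 of 27998 genes. Of these, 13 are encoded by the mitochondrial genome and 96 by the nucleus. The nuclear members divide into 36 subunits of complex I, 4 of complex II, 8 of complex III, 19 of complex IV, 15 of complex V, 11 assembly factors and 3 others. At least 1 transcript molecule, counted as a unique molecular identifier (UMI), was found for 107 of the 109, and Cox7b2 and Cox8c had none in either library.

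The data are single-cell RNA profiles of cells sorted from mouse hindlimb muscle as YFP-positive and negative for the surface protein CD11b. All mice carried Fsp1-Cre together with R26R-EYFP, in which Cre under the Fsp1 promoter (the gene S100a4) marks a cell and its descendants with YFP. Mice of the day 0 library had no operation, and those of the day 28 library had undergone surgery that made the limb ischemic 28 days earlier. Strain, age and the number of animals behind a library are not given in the sources used here, and with 1 library per group no difference has a replicate check. The kept cells numbered 2610 at day 0 and 2580 at day 28, and 13 cell barcodes occurred in both libraries.

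Electrons from NADH enter the respiratory chain of the inner mitochondrial membrane at complex I and those from succinate at complex II. They pass through complex III and cytochrome c to oxygen at complex IV, and complex V uses the proton gradient built on the way to make ATP. Complex II is encoded by nuclear genes throughout, whereas the other complexes are assembled from subunits of both genomes. In blood and immune cells the demand on this machinery is known to vary with proliferation, maturation and secretion.

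Several members have a second form tied to a tissue, and such forms gave the largest differences between cell types among the members. Cox6a2 is the heart and skeletal muscle form of complex IV subunit 6a, with Cox6a1 as its general form, and Cox6b2 is a form of subunit 6b described in testis, with Cox6b1 as its general form. The RefSeq promoters of Cox6a1, Cox6b1 and Cox6b2 (GRCm38.p6) are shown because they differ in the letters known to bind NRF1 and ETS-family factors. These factors control many genes of this pathway. Each promoter shown is the 250 bases before the transcription start, 5′ to 3′ on the strand of the gene. No promoter of Cox6a2 is shown. Capitals mark an NRF1 motif (GCGC, any base, T, GCGC on either strand) or an ETS motif (CCGGAAG or its reverse complement CTTCCGG).
Cox6a1 (chr5:115348959-115349208, minus strand): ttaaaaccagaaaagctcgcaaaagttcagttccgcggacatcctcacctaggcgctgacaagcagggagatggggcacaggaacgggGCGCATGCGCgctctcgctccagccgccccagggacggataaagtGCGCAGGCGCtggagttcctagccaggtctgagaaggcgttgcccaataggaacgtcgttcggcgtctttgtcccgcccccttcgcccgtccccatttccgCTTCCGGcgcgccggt
Cox6b1 (chr7:30626115-30626364, minus strand): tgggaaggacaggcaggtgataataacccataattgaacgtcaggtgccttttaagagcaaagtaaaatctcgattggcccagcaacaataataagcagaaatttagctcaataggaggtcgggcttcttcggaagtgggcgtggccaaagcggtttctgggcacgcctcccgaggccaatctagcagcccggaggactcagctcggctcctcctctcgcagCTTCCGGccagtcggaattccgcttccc
Cox6b2 (chr7:4753095-4753344, minus strand): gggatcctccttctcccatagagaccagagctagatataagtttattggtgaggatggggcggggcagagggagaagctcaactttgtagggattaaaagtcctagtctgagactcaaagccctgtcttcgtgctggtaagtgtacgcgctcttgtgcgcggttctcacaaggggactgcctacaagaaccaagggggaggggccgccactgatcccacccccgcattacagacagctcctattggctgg
Cox6a1 held 2 NRF1 motifs and 1 ETS motif, Cox6b1 held 1 ETS motif, and Cox6b2 held neither. Of the 13 complex IV promoters in the wider window searched below, 1 held the NRF1 motif and 3 the ETS motif. Absence of either motif is thus common among them. General and restricted forms were not counted apart, so a link of absence to the restricted forms was not tested.

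Of the 96 nuclear members, 77 had a RefSeq promoter, searched on both strands over 300 bases from 250 before to 50 after the start. The NRF1 motif was in 21 of the 77 (27.3%), against 5.19% of 27025 genes with such windows. The ETS motif was in 20 (26.0%, against 9.93% of all genes), and the YY1 motif AAGATGGCG in 7 (9.09%, against 1.64%). The E-box letters CANNTG, which read the same on both strands, were in 54 members (70.1%) and in 75% of all genes. By complex, the NRF1 motif was in 7 of 32 promoters of complex I, 2 of 3 of complex II, 1 of 5 of complex III, 1 of 13 of complex IV, 6 of 13 of complex V and 4 of 10 of assembly factors. A match describes these letters in this window and not a bound site.

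Cells were grouped without using the members: the clusters were made with all 109 left out, and named from lists of marker genes. Most cells carried markers of blood and immune lineages, and the fibroblast-like cluster held 12 cells at day 0 and 4 at day 28. The skeletal muscle fibre list summed to 52.8 CPM (UMIs scaled to a common total of 1e6) at day 0 and 14.3 at day 28, with Myh2 and Myh4 at 0 at day 0. Markers of muscle satellite cells gave 2 UMIs in each library, with Myod1 and Myf5 at 0 in both. Median depth was 4779.5 UMIs per kept cell at day 0 and 12222 at day 28, and the class make-up differed, so levels are given per class, as CPM of the summed UMIs of that class. Clusters that could not be named held 12.1% of the day 0 cells and 3.29% of the day 28 cells. All intervals are exact at 95% and cover counting error only.

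Mitochondrially encoded transcripts made up 2.43% of all UMIs in both libraries, and nuclear members 2.61% at day 0 and 2.70% at day 28. Those totals hid an inverse order of the cell classes at day 0. Mature B cell-like cells had the highest mitochondrially encoded share, 3.18%, and one of the lowest nuclear shares, 1.86%. Neutrophil progenitor-like cells had the highest nuclear share, 3.31%, and a mitochondrially encoded share of 2.06%. Monocyte or macrophage-like cells likewise combined 3.12% nuclear with 1.94% mitochondrially encoded UMIs. Naive CD8 T cell-like cells, at 1.79% nuclear and 2.74% mitochondrially encoded, were the lowest in the nuclear sum of the 13 classes with at least 50 cells. Nuclear UMIs per mitochondrially encoded UMI thus ran from 0.585 in mature B cell-like to 1.61 in monocyte or macrophage-like cells.

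**Figure D1:**
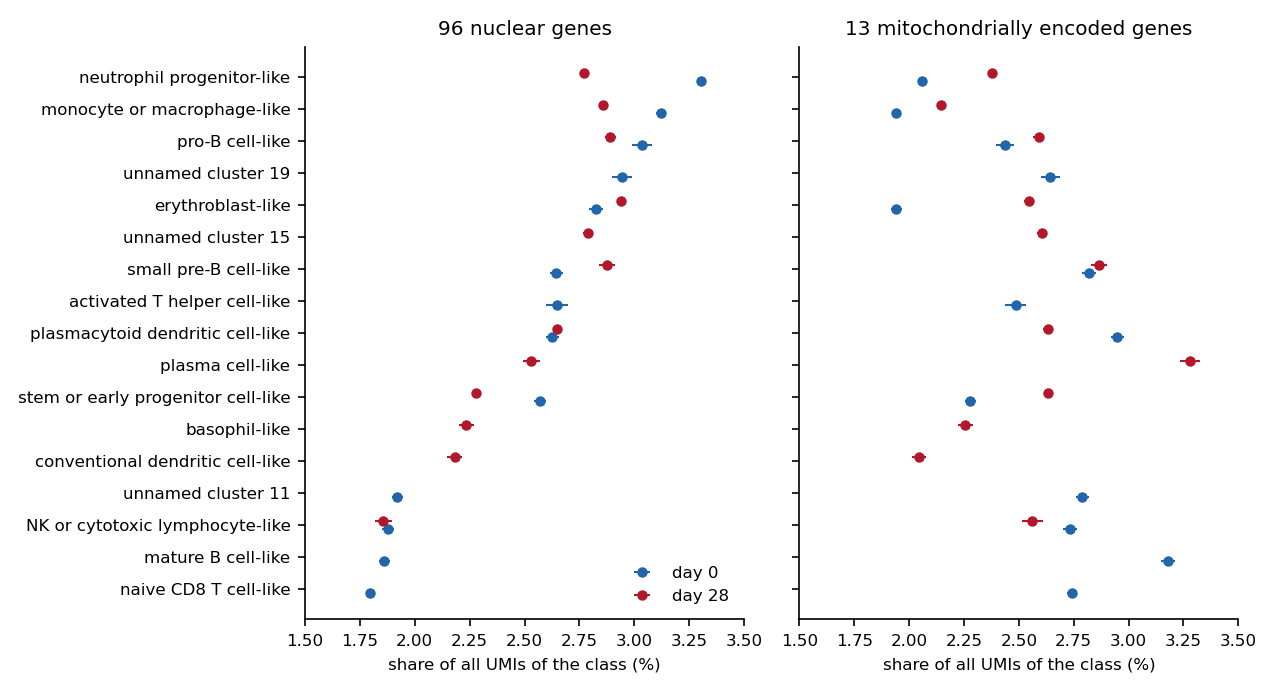
Share of all UMIs of a class, in percent, taken by the 96 nuclear members (left) and the 13 mitochondrially encoded members (right). Points are classes with at least 50 cells in a library, blue for day 0 and red for day 28, and bars are exact 95% intervals for counting error; the NK, mature B and naive CD8 T-like classes and cluster 11 at the bottom are low on the left and high on the right.

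Between these ends, the mitochondrially encoded share at day 0 ran in the order plasmacytoid dendritic cell-like (2.95%), small pre-B cell-like (2.82%), the unnamed cluster 11 (2.79%), naive CD8 T cell-like (2.74%), NK or cytotoxic lymphocyte-like (2.73%), the unnamed cluster 19 (2.64%), activated T helper cell-like (2.49%), pro-B cell-like (2.44%), stem or early progenitor cell-like (2.28%), then neutrophil progenitor-like. Erythroblast-like and monocyte or macrophage-like cells were lowest, both at 1.94%. The neighbours whose intervals overlapped were small pre-B-like cells and cluster 11, cluster 11 and naive CD8 T-like cells, naive CD8 T and NK-like cells, T helper and pro-B-like cells, and erythroblast and monocyte-like cells. Over the 13 classes with at least 50 cells at day 0, Spearman's rho between the shares was -0.70. Over the 12 such classes at day 28 it was 0.15. Only 8 classes were in both sets. Mature B, naive CD8 T and T helper-like cells and clusters 11 and 19 entered at day 0 only. Plasma cell, basophil and conventional dendritic cell-like cells and cluster 15 entered at day 28 only. The 2 values thus do not show whether the inverse order was lost, and the order over the same classes was not tested. The classes of a library share its preparation and depth scale, and median UMIs per cell of a class correlated with the nuclear share at rho 0.81 and with the mitochondrially encoded share at -0.77 at day 0. The part of depth in the order was not tested.

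Among the 12 classes with at least 50 cells at day 28, plasma cell-like cells, which secrete antibody, had the highest mitochondrially encoded share, 3.28%. Small pre-B cell-like cells followed at 2.87%, and conventional dendritic cell-like cells were lowest at 2.05%. The nuclear share was highest in erythroblast-like cells, 2.94%, and lowest in NK or cytotoxic lymphocyte-like cells, 1.86%. Of the classes with fewer cells, the neutrophil-like cells, 15 at day 0 and 5 at day 28, had a mitochondrially encoded share of 0.675% and 1.05%, below every larger class in both libraries.

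For day 28 against day 0, 8 classes with at least 50 cells in each library were compared. The median ratio of all genes tested in a class was itself off zero, from -0.22 in stem or early progenitor cell-like to 0.08 in erythroblast-like cells on the log2 scale, with a median of -0.12 over the 8 classes, and member values are read beside it. The mitochondrially encoded sum was higher at day 28 in erythroblast-like cells, 1.94% and 2.54% of UMIs (ratio 1.31, 95% interval 1.29 to 1.33). It was also higher in neutrophil progenitor-like (1.16), stem or early progenitor cell-like (1.16), monocyte or macrophage-like (1.11) and pro-B cell-like cells (1.06), and about level in small pre-B cell-like cells (1.02, 0.999 to 1.03). The sum was lower in NK or cytotoxic lymphocyte-like (0.937, 0.916 to 0.958) and plasmacytoid dendritic cell-like cells (0.892, 0.881 to 0.904). In erythroblast-like cells the erythroblast marker list, which includes haemoglobin genes, took 161324 CPM at day 0 and 60448 CPM at day 28. All other shares of that class are read against this difference, and its part in the ratio of 1.31 was not tested.

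The plasmacytoid dendritic cell-like ratio is a sum over 2 clusters whose proportions differed. Cluster 8, led by Siglech, Ccl4 and Cd7, held 125 cells at day 0 and 129 at day 28, with 3.74% and 3.56% mitochondrially encoded UMIs. Cluster 7, led by Cd7, Tyrobp and Ms4a6c, held 82 and 181 cells, with 2.32% and 2.28%. In another setting, cells below the smallest total of any day 28 cell were left out and the rest were clustered and named anew. The log2 ratio of the class was then 0.0054 in place of -0.16, and the class may hold other cells there. Of the small pre-B cell-like cells, 72 day 0 cells and no day 28 cell were in cluster 18, and in cluster 9, with 133 and 110 cells, the share was 2.70% and 2.87%. Neutrophil progenitor-like cells were split almost evenly in both libraries, with 69 and 374 cells in cluster 2 and 78 and 342 in cluster 4. The share was 2.08% and 2.37% in cluster 2 and 2.03% and 2.38% in cluster 4, so it was higher at day 28 in both.

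The nuclear sum went its own way. In neutrophil progenitor-like cells it was 3.31% of UMIs at day 0 and 2.77% at day 28 (ratio 0.839, 0.833 to 0.844), while the mitochondrially encoded sum of the same cells was higher. Of the 84 nuclear members tested there, 78 were below and 6 above a ratio of 1, with a median log2 ratio of -0.32 beside -0.13 for all genes. Stem or early progenitor cell-like cells showed the same pairing, 0.886 for the nuclear and 1.16 for the mitochondrially encoded sum, with 72 of 84 nuclear members below 1, but their nuclear median of -0.24 was close to the -0.22 of all genes. Monocyte or macrophage-like cells had a nuclear sum ratio of 0.916 and a nuclear median of -0.20 beside -0.14. In small pre-B cell-like cells the nuclear sum was higher, 2.64% and 2.88% of UMIs (1.09, 1.07 to 1.11), with a nuclear median of 0.10 beside -0.11. This class includes cluster 18, with 72 cells at day 0 and 0 at day 28. The log2 ratio of its nuclear sum, 0.12, ran from 0.016 to 0.20 over the alternative settings, so it was near level in the lowest. With median-of-ratios scaling, or over a total without ribosomal protein, haemoglobin, immunoglobulin and mitochondrial genes, the nuclear sums of pro-B cell-like and stem or early progenitor cell-like cells lay above 0 on the log2 scale, as did that of monocyte or macrophage-like cells under the second, and the neutrophil progenitor-like sum stayed below 0 under both.

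**Figure D2:**
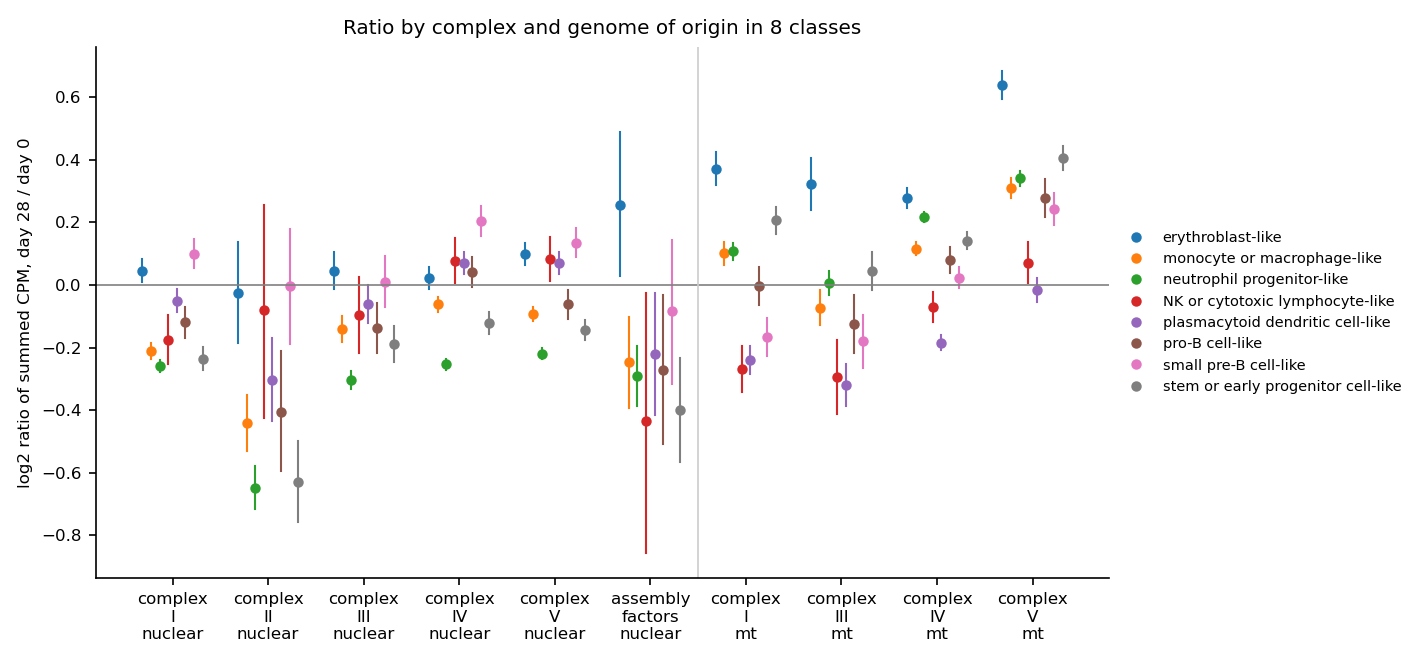
Log2 ratio of the summed CPM of each complex, day 28 over day 0, for nuclear members (left of the grey line) and mitochondrially encoded members (right, marked mt). Colours are the 8 classes and bars exact 95% intervals for counting error; complex II lies lowest among the complexes in neutrophil progenitor-like and stem or early progenitor cell-like cells, and mitochondrially encoded complex V lies highest among the mitochondrial groups in each class.

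Complex II is the succinate dehydrogenase that also serves the tricarboxylic acid cycle. Among the nuclear sums of complexes I to V, it had the lowest ratio in 7 of 8 classes. In the exception, NK or cytotoxic lymphocyte-like cells, complexes I and III were lower than complex II. Its summed ratio was 0.638 (0.608 to 0.670) in neutrophil progenitor-like cells, 0.647 (0.592 to 0.708) in stem or early progenitor cell-like, 0.737 (0.693 to 0.784) in monocyte or macrophage-like, 0.756 (0.662 to 0.863) in pro-B cell-like and 0.811 (0.739 to 0.890) in plasmacytoid dendritic cell-like cells. The intervals of the NK or cytotoxic lymphocyte-like (0.946), erythroblast-like (0.983) and small pre-B cell-like cells (0.997) included 1. All 4 subunits were measured in all 8 classes. Sdhc, a membrane anchor, had 116 CPM (day 0) and 71.3 CPM (day 28) in neutrophil progenitor-like cells and at 95.8 and 61.4 CPM in stem or early progenitor cell-like cells, was lower in 7 of 8 classes and had a median log2 ratio of -0.61. Sdhd, the other anchor, had a median of -0.39 and was lower in 6 of 8 classes, Sdhb, the iron-sulphur subunit, -0.36 and 7 of 8, and Sdha, the flavoprotein, -0.28 and 7 of 8. None of these 4 medians changed sign under the 11 alternative settings.

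Ratios of nuclear complex I ran from 0.836 in neutrophil progenitor-like to 1.07 in small pre-B cell-like cells, those of complex III from 0.811 to 1.03 (erythroblast-like), those of complex IV from 0.839 to 1.15, and those of complex V from 0.859 to 1.10, with neutrophil progenitor-like cells lowest in each. Counted by gene, few nuclear members passed a 2-fold difference at a mean of at least 20 CPM. Of 656 pairs of a nuclear member and a class, 1 passed upward at day 28 and 2 downward, or 0.152% and 0.305%. Over all genes, 1.45% of 36587 such pairs passed upward and 3.51% downward. The 3 pairs were Cox6a2 in stem or early progenitor cell-like cells, described below with its isoform, Ndufa9, a complex I subunit, in NK or cytotoxic lymphocyte-like cells, and Uqcrb, a complex III subunit, in stem or early progenitor cell-like cells. Ndufa9 stood at 57.7 and 28.0 CPM on 53 and 12 UMIs, with a ratio of 0.485 (0.236 to 0.919), in a class where 7.57% of all genes tested passed downward. In stem or early progenitor cell-like cells 0.478% of all genes passed upward and 3.16% downward.

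Smaller differences repeated across classes. Of the 76 nuclear members tested in all 8 classes, 12 were lower at day 28 in every class and 2 were higher in every class. Of all 2565 genes so tested, 12.1% were lower and 8.62% higher in every class, beside 15.8% and 2.63% of the nuclear members. Under median-of-ratios scaling the counts were 8 lower and 11 higher, beside 9.04% and 14.0% of all genes, so the balance of directions turns with the scaling. The 8 classes share their 2 libraries and are not independent of each other.

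Uqcrc1, a core subunit of complex III, had the lowest median log2 ratio of this complex, -0.58. Its level at day 0 and day 28 was 102 and 60.7 CPM in NK or cytotoxic lymphocyte-like cells, 227 and 202 in erythroblast-like, 303 and 210 in monocyte or macrophage-like, 309 and 208 in neutrophil progenitor-like, 200 and 147 in plasmacytoid dendritic cell-like, 245 and 161 in pro-B cell-like, 260 and 173 in small pre-B cell-like and 219 and 125 CPM in stem or early progenitor cell-like cells. Every class was lower at day 28, and erythroblast-like cells least so.

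Uqcrb, which binds the quinone site region of the same complex, was also lower in all 8 classes, with a median of -0.54. It went from 348 to 169 CPM in stem or early progenitor cell-like cells on 473 and 615 UMIs, a ratio of 0.484 (0.428 to 0.547). In neutrophil progenitor-like cells it stood at 472 and 275 CPM, and in small pre-B cell-like cells, the least different, at 234 and 205 CPM. Uqcrq and Uqcr10, small subunits of complex III, had medians of 0.13 and 0.10, and the direction of each turned under 2 of 11 alternative settings.

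In complex I, Ndufs4, an accessory subunit near the NADH-oxidising module, was lower in all 8 classes with a median log2 ratio of -0.53. It stood at 156 and 114 CPM in monocyte or macrophage-like cells, at 148 and 89.3 in pro-B cell-like cells and at 123 and 115 in small pre-B cell-like cells. Ndufa11, a membrane-arm subunit, had a median of -0.45 and was lower in all 8 classes. Ndufb9 (0.20, higher in 7 of 8) and Ndufc1 (0.18, higher in 5 of 8) had the highest medians of the nuclear complex I subunits, and the sign of the second turned under 3 of 11 settings.

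Complex V split by subunit. Atp5e, the small epsilon subunit of the catalytic part, was higher in all 8 classes, from 666 CPM at day 0 to 906 at day 28 in erythroblast-like and from 674 to 952 in NK or cytotoxic lymphocyte-like cells, with a median log2 ratio of 0.25. Atp5f1, a subunit of the peripheral stalk, was also higher in all 8, with a median of 0.22 and its smallest difference in neutrophil progenitor-like cells, 505 and 512 CPM. The alpha subunit Atp5a1 was lower in all 8, with a median of -0.28, and Atp5j2, a small membrane subunit, was lower in 6 of 8 (-0.24). Atp5g3, 1 of the genes for the proton-carrying ring subunit, was lower in all 8 (median -0.23), at 417 and 285 CPM in neutrophil progenitor-like cells and 188 and 173 in NK or cytotoxic lymphocyte-like cells.

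Scaling and depth bear on these lists. Across the total used here, median-of-ratios scaling, the total without ribosomal protein, haemoglobin, immunoglobulin and mitochondrial genes, and cells thinned to 3200 UMIs, Uqcrc1, Uqcrb, Ndufs4, Ndufa3 and Atp5g3 were lower in all 8 classes each time, and Atp5e was higher each time. Of the 12 members lower under the total used here, 10 had a RefSeq promoter. The NRF1 motif was in 6 of these (Uqcrc1, Atp5g3, Ndufa11, Ndufa5, Ndufa6 and Sdhaf4), beside 27.3% of all nuclear members with a promoter and 5.19% of all genes. The ETS motif was in 1, beside 26.0% and 9.93%, and the YY1 motif in 1, beside 9.09% and 1.64%. The E-box letters were in 8, beside 70.1% and 75%. A link of a motif to the direction was not tested. Of the 5 members lower under each scaling, 4 had a promoter, and Uqcrc1 and Atp5g3 held the NRF1 motif while Ndufs4 and Ndufa3 did not. Atp5e held an ETS motif and the E-box letters and no NRF1 motif. Other gene groups differed between the libraries too: the dissociation stress list, of immediate early and heat shock genes, had 16 of 51 gene-class pairs past 2-fold downward and 0 upward at day 28, beside 3.51% and 1.45% of the pairs of all genes. It was led by Junb, lower in all 8 classes with a median log2 ratio of -1.38, and its highest gene was Fosb, with -0.06. Its part in the values of the members was not tested.

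**Figure D3:**
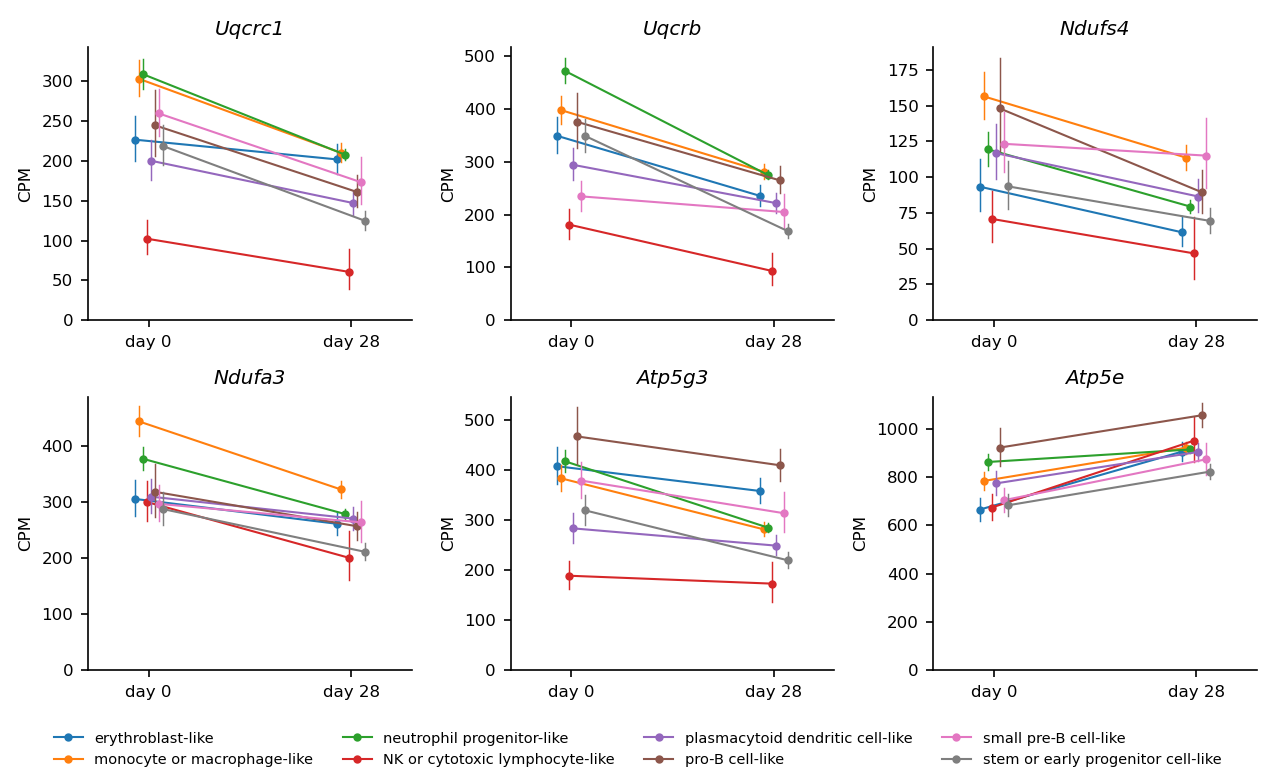
CPM at day 0 and day 28 of the 6 nuclear members that kept 1 direction in all 8 classes under each of 4 scalings. Lines join the values of a class, bars are exact 95% Poisson intervals and each axis starts at 0; 5 members slope down and Atp5e slopes up in every class.

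Complex IV members also differed in both directions. Cox7a2 (median log2 ratio 0.24) and Cox7c (0.18) were each higher in 7 of 8 classes. Cox6a1 (-0.32) was lower in 7 of 8, at 871 and 647 CPM in erythroblast-like, 566 and 397 in neutrophil progenitor-like and 540 and 569 CPM in small pre-B cell-like cells, and Ndufa4, now counted as a subunit of this complex, was lower in 6 of 8 (-0.25). Cox4i1, the general form of subunit 4, had a median of 0.05 and turned sign under 3 of 11 settings. Among assembly factors, Sdhaf4, which helps build succinate dehydrogenase, was lower in all 8 classes (-0.40), Ndufaf4, a complex I factor, lower in 6 of 8 (-0.33), and Sdhaf1, another factor for complex II, higher in 5 of 8 (0.10). Of the last 2, 7 classes reached 20 CPM, and the sign of the Sdhaf1 median turned under 1 of 11 settings.

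Among the mitochondrially encoded members, mt-Atp8 stood apart. It encodes a small subunit of complex V, and its 204 bases overlap those of mt-Atp6, the proton channel subunit, by 43. The RefSeq sequence (GRCm38.p6) is shown because reads from the shared stretch, in capitals, match both genes, and how they were counted is not given in the sources used here.
mt-Atp8 (chrM:7766-7969, plus strand): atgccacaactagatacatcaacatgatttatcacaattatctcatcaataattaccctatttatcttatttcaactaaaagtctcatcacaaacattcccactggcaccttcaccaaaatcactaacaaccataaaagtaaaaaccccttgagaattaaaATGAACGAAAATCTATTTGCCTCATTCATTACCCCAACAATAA

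Over all kept cells mt-Atp8 gave 400 UMIs (day 0) and 1452 UMIs (day 28), or 21.1 and 39.0 CPM. Its level at day 0 and day 28 was 32.7 and 60.7 CPM in NK or cytotoxic lymphocyte-like cells, 13.1 and 31.4 in erythroblast-like, 15.7 and 31.6 in monocyte or macrophage-like, 24.5 and 41.0 in neutrophil progenitor-like, 20.9 and 36.5 in plasmacytoid dendritic cell-like, 14.1 and 44.0 in pro-B cell-like, 15.7 and 48.0 in small pre-B cell-like and 21.4 and 48.0 CPM in stem or early progenitor cell-like cells. Every class was higher at day 28, and the day 0 and day 28 levels overlapped only where NK or cytotoxic lymphocyte-like cells at day 0 (32.7) exceeded erythroblast-like and monocyte or macrophage-like cells at day 28. The median log2 ratio was 1.09, from 0.74 to 1.64. The difference was at least 2-fold in 5 of the 8 classes, which 0.585% of 2565 genes reached or passed. These were erythroblast-like, monocyte or macrophage-like, pro-B cell-like, small pre-B cell-like and stem or early progenitor cell-like cells, where 2.02%, 0.448%, 1.3%, 0.992% and 0.478% of all genes tested passed upward. The largest ratio, 3.12 (1.5 to 7.52) in pro-B cell-like cells, rests on 8 and 70 UMIs. No cell held more than 3 mt-Atp8 UMIs at day 0 or 5 at day 28. Over 12 alternative settings the median ran from 1.04 to 1.33.

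The make-up of the mitochondrially encoded sum differed as well. As a share of all mitochondrially encoded UMIs, mt-Atp6 was 22.4% at day 0 and 25.6% at day 28 over all kept cells, and was higher in 8 of 8 classes. The complex IV gene mt-Co2 took 7.28% and 7.90% and was also higher in all 8, though by a log2 ratio of 0.0021 in its least different class. In the other direction, mt-Nd1 of complex I took 11.0% and 9.61%, mt-Cytb of complex III 9.03% and 7.96%, and mt-Co3 of complex IV 21.9% and 20.5%, each lower in 8 of 8 classes. The share of mt-Co1, the catalytic subunit of complex IV, was 20.2% and 20.1%. These shares are parts of 1 sum and do not depend on the scaling of the libraries. Among the scarcer genes, mt-Nd4l, a complex I subunit, had a lower share in 7 of 8 classes (median log2 ratio -0.46), with NK or cytotoxic lymphocyte-like cells higher, and the complex I subunits mt-Nd2 (0.17) and mt-Nd3 (0.12) a higher share in 7 of 8. The share of mt-Nd4 was higher in 4 and lower in 4 classes, and that of mt-Nd5 higher in 5 of 8. The subunit mt-Nd6, read from the other strand, gave 101 and 214 UMIs in all, 5.33 and 5.75 CPM, and stayed below 20 CPM in each of the 8 classes.

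**Figure D4:**
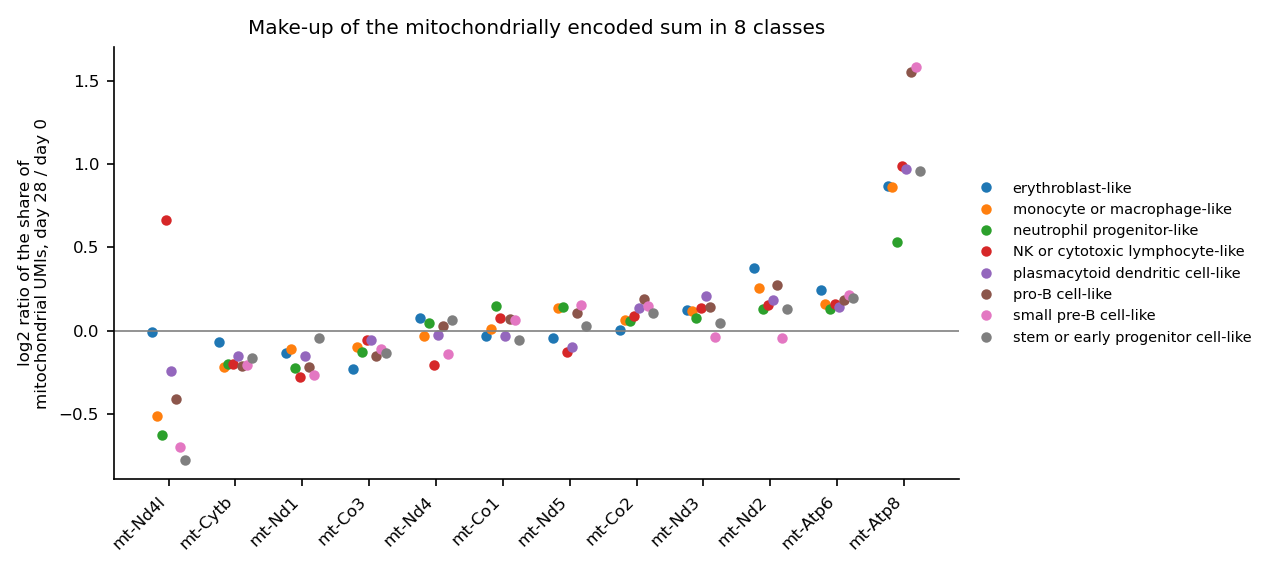
Log2 ratio, day 28 over day 0, of the share of mitochondrially encoded UMIs taken by each of 12 mitochondrially encoded genes (mt-Nd6 is left out as too scarce). Points are the 8 classes, genes are ordered by their median, and mt-Atp8 and mt-Atp6 lie above 0 and mt-Cytb, mt-Nd1 and mt-Co3 below 0 in all classes.

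The tissue forms separated the classes most. Cox6a2 (chr7:128205435-128206387, minus strand) measured 889 CPM (838 to 942) before surgery and 556 CPM (527 to 586) on day 28 in plasmacytoid dendritic cell-like cells, the interferon-producing dendritic cells, on 1149 and 1401 UMIs. These cells held 90.1% and 82.2% of all Cox6a2 UMIs while making up 7.93% and 12.0% of the cells. All other cells together stood at 7.14 and 8.76 CPM, a ratio of 125 (104 to 151) at day 0 and 63.5 (56.0 to 72.1) at day 28. At least 1 UMI was found in 72.0% and 57.1% of plasmacytoid dendritic cell-like cells, and in 68.6% and 52.9% when each cell was thinned to 3200 UMIs. In erythroblast-like cells the share was 0.971% and 3.17% without thinning, 1 and 4 UMIs, at median depths of 9138 and 16158.5 UMIs against 4866 and 6536.

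Within the class the level followed cluster. In cluster 8 it was 1648 CPM and, on day 28, 1314 CPM, beside 1727 and 1494 CPM of the plasmacytoid dendritic cell marker Siglech, and in cluster 7 it was 285 and 264 CPM, beside 167 and 149 CPM of Siglech. The markers Ccr9 (23.6 and 25.8 CPM) and Bst2 (1115 and 1026) were also lower in cluster 7 than in cluster 8 (625 and 570, 4792 and 4326). Of the top 10 genes of cluster 7, 1 was on the plasmacytoid dendritic cell list, so the name is less certain there. The general form Cox6a1 was level in the class, 483 and 457 CPM. The muscle forms of other subunits were nearly absent from it: Cox7a1 gave 1 UMI in each library and Cox8b none. The 10 skeletal muscle fibre markers summed to 6 UMIs (4.64 CPM) and 26 UMIs (10.3 CPM) in the class, with Myh1, Myh2 and Pvalb at 0 in both.

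Outside it, Cox6a2 at day 28 was 74.8 CPM in plasma cell-like cells and 22.9 CPM in conventional dendritic cell-like cells. In the former, 14 of 44 UMIs were in 1 cell, and in the latter, 9 of 16. Stem or early progenitor cell-like cells had 13.3 CPM and later 31.5 CPM, on 18 and 115 UMIs, a ratio of 2.38 (1.44 to 4.15). No cell of that class held more than 4 and 12 of these UMIs, and the summed plasmacytoid dendritic cell markers there were 351 and 321 CPM, 8 of 8 found in both, with Siglech at 0.737 and 2.74 CPM. Their part in the Cox6a2 level was not tested. The 15 UMIs of activated T helper cell-like cells at day 0 were all in 1 cell.

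**Figure D5:**
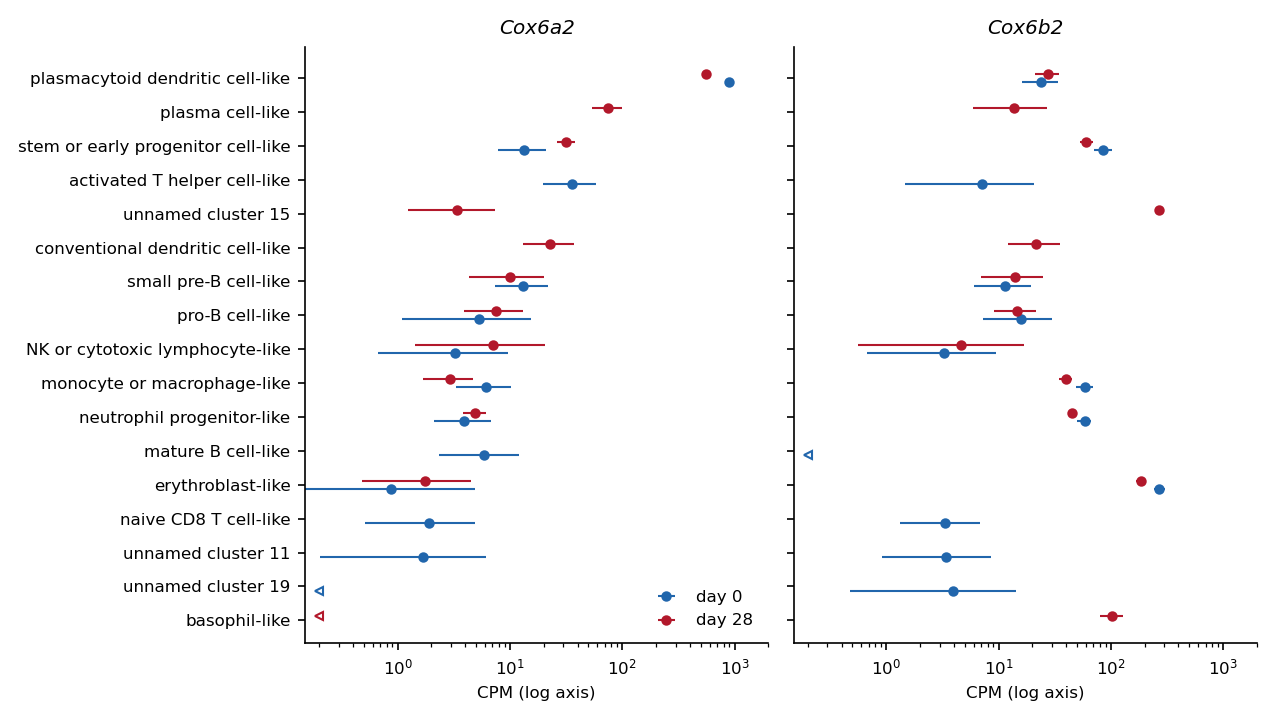
CPM of Cox6a2 (left) and Cox6b2 (right) in each class with at least 50 cells in a library, on a log axis, blue for day 0 and red for day 28, with exact 95% Poisson intervals. Open triangles at the left edge are classes with 0 UMIs; plasmacytoid dendritic cell-like cells lie far to the right for Cox6a2, and erythroblast-like cells and cluster 15 for Cox6b2.

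Cox6b2 (chr7:4751792-4753094, minus strand) had another pattern. It measured 270 CPM (240 to 301) and 185 CPM (168 to 204) in day 0 and day 28 erythroblast-like cells, and 337 and 268 CPM in the unnamed cluster 15, of 26 and 77 cells, whose best-scoring list was that of erythroid-megakaryocyte progenitors. Basophil-like cells followed at 92.9 and 102 CPM, then stem or early progenitor cell-like cells at 85.5 and 60.3, monocyte or macrophage-like cells at 58.4 and 39.6, and neutrophil progenitor-like cells at 58.4 and 45.5 CPM. Lymphocyte classes were at the other end. NK or cytotoxic lymphocyte-like cells had 3.27 and 4.67 CPM, and 259 day 0 mature B cell-like cells had 0 UMIs (upper limit 3.09 CPM). The few such cells at day 28 were higher on little depth: 4 UMIs in 26 mature B cell-like cells, or 14.5 CPM (3.96 to 37.2), and 2 UMIs in 14 naive CD8 T cell-like cells, or 30.1 CPM (3.64 to 109), beside 3.32 CPM at day 0. The general form Cox6b1 was 735 and 671 CPM in erythroblast-like cells.

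The remaining restricted forms were scarce. Cox4i2, the oxygen-regulated form of subunit 4, reached at most 4.42 CPM in the 8 classes compared. Ndufa4l2, a relative of Ndufa4 known as a hypoxia-induced gene, gave 2 UMIs in the 12 fibroblast-like cells at day 0 and 9 in the 4 at day 28, 34.8 and 397 CPM, from too few cells to compare. The muscle forms came together in 1 cell: a day 0 barcode of cluster 15, with 4059 UMIs, held 19 UMIs of Cox8b, 16 of Cox6a2 and 8 of Cox7a1, 0 of Cox6a1, and 718 of the 1000 muscle fibre marker UMIs of that library. That barcode held 0 UMIs of Car1 and of Car2, leading genes of the cluster, and 1 haemoglobin UMI. Without it the other cells of cluster 15 at day 0 would hold 0 UMIs of Cox8b and of Cox7a1.

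Beyond these forms, 4 members had the widest range between classes, averaged over the libraries. Sdhaf2, which attaches the flavin to Sdha, was highest in small pre-B cell-like cells, 102 and 110 CPM, ahead of 74.5 CPM in the unnamed cluster 19 at day 0 and 43.4 CPM in pro-B cell-like cells at day 28. Ndufaf3, a complex I assembly factor, was also highest there, at 87.4 and 65.7 CPM. Ndufb9 was highest in erythroblast-like cells, 583 and 625 CPM. Atp5g1, another gene for the ring subunit, was highest in neutrophil progenitor-like cells at day 0, 794 CPM, and in cluster 15 at day 28, 1034 CPM. The median nuclear member spanned 1.27 log2 units between its highest and lowest class at day 0 and 1.15 at day 28, after 10 CPM was added to each level.

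Genes that serve the same organelle were read from lists outside the naming prefixes. No pair of a gene and a class reached 2-fold among the tricarboxylic acid cycle enzymes (0 of 102), the cytochrome c list (0 of 53) or the genes of mitochondrial transcription (0 of 20). Of 555 pairs of mitochondrial ribosomal proteins, 1 passed upward and 6 downward. Each of these counts is a smaller share than the 1.45% upward and 3.51% downward of all pairs, though 20 pairs would hold fewer than 1 at those shares. The ends of the first 3 lists by median log2 ratio were Cs (0.25) and Suclg1 (-0.45), Cycs (0.02) and Etfdh (-0.35), and Slirp (-0.18) and Tfam (-0.33), and those of the ribosomal proteins Mrps24 (0.21) and Mrpl46 (-0.68). Vdac2, a channel of the outer membrane, was higher in all 8 classes with a median log2 ratio of 0.24, and Vdac3, another such channel, was higher in 1 of 8 with -0.33. Cox17, which carries copper to complex IV, was higher in all 8 with 0.33, and Cox16, another assembly factor of that complex, in 1 of 8 with -0.84. Tfam packages and transcribes mitochondrial DNA, and Slirp stabilises mitochondrial transcripts. Among the regulators of biogenesis, the growth regulator Myc had the lowest median, -0.84, with 108 and 51.8 CPM in stem or early progenitor cell-like cells. It was higher in erythroblast-like and plasmacytoid dendritic cell-like cells, by 0.12 and 0.17, on 7 and 15 UMIs and 10 and 22 UMIs. Both stood below 20 CPM, as did small pre-B cell-like cells, where Myc had 17 and 1 UMIs. Gabpb1, a subunit of an ETS-family factor, had the highest, 0.10, and was higher in 4 of 8 classes. In the cell cycle list, read as a sign of proliferation, 8 of 94 pairs passed upward, all in NK or cytotoxic lymphocyte-like cells, and 1 downward, with Ube2c (0.75) and Mcm2 (-0.53) at its ends, and its part in the values of the members was not tested.

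Glycolysis, the other source of ATP, had 1 of 87 pairs past 2-fold upward and 14 downward, beside 1.45% and 3.51% of the pairs of all genes. The lowest of its genes was Pgk1, a kinase that makes ATP in this pathway, at 68.9 and 6.87 CPM in monocyte or macrophage-like and 40.5 and 4.66 CPM in stem or early progenitor cell-like cells, with a median log2 ratio of -3.04 and lower in 8 of 8 classes. The gene table also holds the copy Pgk1-rs7, and how reads shared by the copies were counted is not given in the sources used here. Gapdh, the preceding enzyme, had a median of 0.38 and was higher in 7 of 8. No nuclear member of the respiratory chain differed as far as Pgk1 did in its median over the classes.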

How the data were processed

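The authors deposited whole-number UMI counts in sparse matrices (genes by barcodes), with no normalization. Per the submitters' processing notes, Cell Ranger 2.1.1 and STAR (version not stated) were used with mm10. Cell Ranger's handling of reads shared by overlapping genes or pseudogenes, which many nuclear members have, is not given in the sources used here. The libraries held 19574562 (day 0) and 38785525 UMIs (day 28) in 2668 and 2653 barcodes. Barcodes with under 500 genes or over 10% mitochondrial UMIs (2 and 17) and the top Scrublet scores at 0.8% per 1000 barcodes (57 and 56) were left out.

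Leiden clusters (scanpy 1.11.5, leidenalg 0.10.2, resolution 0.8, 2000 variable genes without members, 30 components, 20 neighbours) were named from marker lists when at least 3 markers were found in 10% of cells, the score was at least 1 and no other class or lineage led the top 10 genes. These thresholds were set after seeing the data. UMIs were summed per class and scaled to CPM. Called means at least 2-fold at a mean of 20 CPM. Intervals (95%) are Poisson, Clopper-Pearson or conditional binomial, and a count of 0 was set to 3 UMIs. No test was possible. Members and lists were chosen with earlier results of these data known. Named are all mitochondrially encoded genes, tissue-form pairs, the 2 highest and 2 lowest nuclear members per complex by median ratio, the 6 with the widest range and the ends of each list; Ndufa9, Ndufa3, Atp5g3, Ndufa5, Ndufa6 and Siglech were added after values were seen. On simulated counts, in erythroblast-like cells (4047 genes), 98.0% of 100 genes raised 3-fold were called, and in NK or cytotoxic lymphocyte-like cells (3972 genes) 90.0%, where 3.18% of unchanged genes were called too.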

Additional observations from a re-analysis of the deposited data

Results flagged for a closer look

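Effects of day 28 against day 0 that pointed opposite ways in different classes were picked out, without a test of the difference. The mitochondrially encoded sum had a ratio of 1.31 in erythroblast-like cells and 0.892 in plasmacytoid dendritic cell-like cells. The erythroblast marker list, which includes haemoglobin genes, took 161324 CPM of the erythroblast-like cells at day 0 and 60448 CPM at day 28. The nuclear sum had a ratio of 1.09 in small pre-B cell-like cells and 0.839 in neutrophil progenitor-like cells. Over the alternative settings the log2 ratio ran from 0.016 to 0.20 in the former and from -0.27 to -0.13 in the latter. Cox6a2 had a ratio of 2.38 in stem or early progenitor cell-like cells and 0.625 in plasmacytoid dendritic cell-like cells. The second is a sum over 2 clusters whose cell numbers went from 82 to 181 (cluster 7) and from 125 to 129 (cluster 8). Within them Cox6a2 differed less, 285 and 264 CPM in cluster 7 and 1648 and 1314 CPM in cluster 8.

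A signal also appeared in barcodes that entered no comparison. At day 28, 17 barcodes had more than 10% mitochondrially encoded UMIs, from 10.9% to 34.1%, against 1 at day 0. Of the 17, 6 fell with neutrophil progenitor-like and 4 with plasmacytoid dendritic cell-like cells when clustered with the rest.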

How the results depend on the processing

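No paired analysis was possible because each group has 1 library and no result comes from a test. Of 74 values of the main results under an alternative setting, 32 stayed within their spread, 40 moved and 2 reversed, and of 660 for single classes and genes 567 stayed, 86 moved and 7 reversed. In each case below the cause was not tested. The median over classes of the log2 ratio of the mitochondrially encoded sum (0.12) kept its sign throughout: 0.24 with median-of-ratios scaling, 0.25 over the total without ribosomal protein, haemoglobin, immunoglobulin and mitochondrial genes, 0.15 with no mitochondrial limit, 0.073 with a limit of 5%, 0.15 with a common minimum total (without cells below the smallest day 28 total), 0.17 at clustering resolution 0.4 and 0.089 when clustered with the members. That of the nuclear sum (-0.043) reversed to 0.018 with median-of-ratios scaling and 0.054 over that smaller total, and moved to -0.079 when thinned, -0.075 as a mean over cells, -0.13 with no mitochondrial limit, -0.081 with the 5% limit, -0.13 with the common minimum, -0.084 with doublets kept, -0.086 at resolution 0.4 and -0.087 when clustered with members. By class, the nuclear sum reversed to 0.050 and 0.060 in pro-B cell-like, 0.020 and 0.0058 in stem or early progenitor cell-like (each under the 2 scalings), 0.0051 in monocyte or macrophage-like (smaller total) and -0.079 in erythroblast-like cells (resolution 0.4), and the mitochondrially encoded sum to 0.0054 in plasmacytoid dendritic cell-like cells (common minimum).

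The 1 nuclear pair at least 2-fold higher became 3 when thinned, 0 with the common minimum, 2 at resolution 0.4, 9 with no filter and 4 at 1.5-fold. The 2 lower pairs became 1 with median-of-ratios scaling, 0 over the smaller total, 7 when thinned, 5 with no mitochondrial limit, 4 with the 5% limit, 5 when clustered with members, 11 with no filter and 32 at 1.5-fold. The log2 fold of Cox6a2 in plasmacytoid dendritic cell-like over other cells at day 0 (6.96) was 7.29 when thinned, 6.22 as a mean over cells, 6.50 with the 5% limit, 6.22 with the common minimum, 6.34 with doublets kept, 6.47 at resolution 0.4, 6.51 when clustered with members, 5.32 in cluster 7 alone and 7.85 in cluster 8 alone. At day 28 (5.99) it was 5.80 with doublets kept, 4.92 in cluster 7 and 7.23 in cluster 8. The split by cluster, the single cluster of small pre-B cell-like cells and mt-Atp8 without its top cells were chosen after seeing the data. A class had no value, for want of 50 cells of that name in each library, with no mitochondrial limit (small pre-B cell-like), the 5% limit and clustering with members (monocyte or macrophage-like), the common minimum (NK or cytotoxic lymphocyte-like) and resolution 0.4 (small pre-B cell-like). Depth limits genes under 20 CPM, such as mt-Nd6 and Cox4i2.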
